A study of Mus musculus with 9 samples.

Results

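The 9 genes described here encode subunits of the Polycomb repressive complexes: Ring1, Rnf2, Bmi1, Cbx2, Cbx7, Cbx8 and Phc1 of PRC1, and Eed and Suz12 of PRC2. They were chosen by name from the 47643 genes of a count table of mouse hematopoietic stem cells (HSCs), each matched 1 row of the table, and 9 of 9 passed the filter on low counts that left 18205 genes. In long-term HSCs (LT-HSCs) lacking all class IA phosphoinositide 3-kinase (PI3K) catalytic isoforms, Cbx2 was about 2.22 and 2.50 times, and Cbx7 about 1.83 and 2.56 times, the level of the 2 control genotypes by the fitted fold, with the other members closer to the controls or scattered between libraries. None of these differences passed correction for testing all genes.

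The study compared 3 genotypes with 3 RNA-seq libraries each. TKO cells carried Pik3ca lox/lox;Pik3cb lox/lox;Pik3cd-/- alleles with Mx1-Cre, δKO cells carried the same floxed and null alleles without Cre, and WT cells carried Mx1-Cre with unfloxed Pik3ca and Pik3cb and intact Pik3cd. C57BL/6 bone marrow was transplanted into lethally irradiated B6.SJL recipients 6 to 8 weeks old, which received 2 injections of 250 µg pIpC 48 h apart, and donor-derived Lin-cKit+Sca1+Flk2-CD48-CD150+ cells were sorted 4 weeks later. The age of transplant donors is stated both as 4 to 6 weeks and, as a general rule, as 6 to 8 weeks, and which applied to these libraries is not given in the sources used here. The marrow of the 7 recipients in a group was pooled before staining, RNA was amplified before sequencing, and whether the 3 libraries of a genotype came from separate sorts is not given in the sources used here, so the p-values measure the spread between these libraries, which may be technical. The Mx1 promoter responds to interferon, which pIpC induces, and all 3 genotypes received pIpC. TKO differs from δKO both in the deletions and in carrying Cre, and these cannot be told apart in that comparison, while δKO differs from WT in Pik3cd, in the unexcised floxed alleles and in lacking Cre. One δKO library has a column number that no label carries and is called the unnumbered δKO library.

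Polycomb proteins keep genes silent through histone marks. PRC2, built on Eed, Suz12 and the methyltransferase Ezh1 or Ezh2, trimethylates a lysine of histone H3, and Eed also binds that mark. Canonical PRC1 reads the mark through a Cbx subunit and ubiquitinates histone H2A through the E3 ligases Ring1 or Rnf2 with Bmi1 or its paralog Pcgf2, while Phc proteins link PRC1 complexes to each other. In blood, Bmi1 is needed for HSC self-renewal and represses the Cdkn2a locus. Cbx7 is known as the self-renewal Cbx of HSCs, and Cbx2 and Cbx8 compete with it for a place in PRC1 and have been tied to differentiation.

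Library depth was 31300343 to 60386097 counts on genes. δKO replicate 1 and the unnumbered δKO library had the fewest genes with a count (18180 and 18500, against 19703 to 22703 in the other 7), and the correlation of log2 CPM between libraries of a genotype was 0.802 to 0.863 in δKO, 0.905 to 0.912 in WT and 0.856 to 0.906 in TKO. Of the targeted genes, Pik3cb was 31.0 ± 4.77 CPM in TKO against 56.2 ± 10.1 in WT (mean ± SD, n = 3 each) and Pik3cd was 72.6 ± 1.25 in TKO and 66.9 ± 26.6 in δKO against 116 ± 20.5 in WT, while Pik3ca was 60.2 ± 7.59 in TKO against 57.1 ± 10.1 in WT. Reads over exons left in place by a deletion are counted in these values. In sorted bulk samples, fewer cells of a type and less RNA per cell cannot be told apart.

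No member passed an adjusted p of 0.05 in any comparison (0 of 9 in each by edgeR's quasi-likelihood test, p-values being adjusted over 18205 genes by Benjamini-Hochberg). The background was as sparse: 0.00549% of all genes passed in TKO against WT, 0% in TKO against δKO and 0.00549% in δKO against WT. DESeq2 on all 9 libraries also called 0 of 9 members in each comparison, where it called 0.657%, 3.32% and 1.05% of the genes it tested, and DESeq2 on only the groups compared called 0 of 9 beside 3.44%, 1.53% and 1.01%. At an unadjusted p under 0.05, edgeR passed 0 of 9 members in TKO against WT (4.19% of all genes), 2 of 9, Cbx2 and Cbx7, in TKO against δKO (10.2%), and 0 of 9 in δKO against WT (7.01%). In TKO against δKO, Cbx2 passed that unadjusted threshold in 10 of 19 alternatives and lost it without any 1 of the 3 TKO libraries, δKO replicate 1, the unnumbered δKO library or WT replicate 1 or 2. Cbx7 passed in 16 of 19 and lost it without TKO replicate 1, δKO replicate 2 or the unnumbered library. Other values came under the unadjusted threshold in some alternatives only. Against WT, TKO passed for Cbx2 in 4 of 19 and for Cbx7 in 3 of 19: for both without δKO replicate 1 and with edgeR or DESeq2 on the groups compared alone, and for Cbx2 also with DESeq2 on all 9 libraries. Against δKO, TKO passed for Cbx8 in 4 of 19, which were DESeq2 on either set of libraries, no filter on low counts and the fit without δKO replicate 2. Phc1 passed in 2 of 19 both in TKO against δKO and in δKO against WT, each time without the unnumbered library, and Cbx7 passed in 1 of 19 in δKO against WT, without δKO replicate 1. The adjusted p of all these was 0.0966 or higher. TKO and δKO are both compared with the same WT libraries, and both TKO comparisons share the TKO libraries, so the comparisons are not independent.

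**Figure D1:**
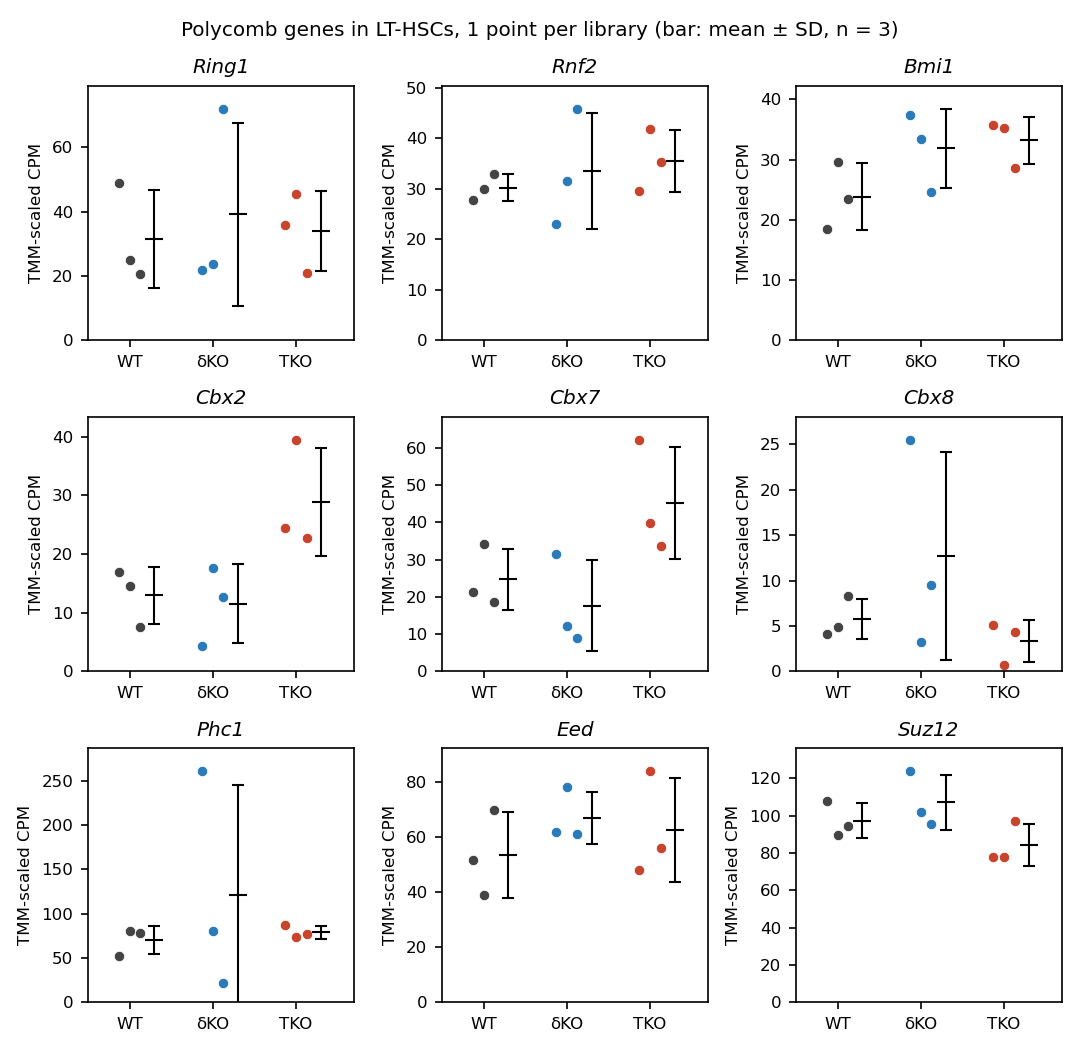
TMM-scaled CPM (vertical axes starting at 0) of the 9 Polycomb genes in each of the 9 libraries, grouped by genotype, with the mean ± SD (n = 3) to the right of each group and in the order replicate 1, 2 and 3 (unnumbered library last in δKO). All TKO points lie above the control points for Cbx2, and 1 δKO library stands far above the others for Phc1, where the lower end of the SD runs past 0, and for Cbx8.

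In the TKO comparisons the fitted values farthest from 0 were those of the chromobox genes. Cbx2 (ENSMUSG00000025577.7, chromosome 11, 119022962 to 119031270 in mm10, plus strand) measured 24.4, 39.4 and 22.7 CPM in TKO replicates 1 to 3, where CPM are counts relative to library size, scaled with TMM factors. It measured 16.9, 14.5 and 7.50 CPM in WT replicates 1 to 3 and 4.35, 17.6 and 12.7 CPM in δKO replicates 1 and 2 and the unnumbered library. Every TKO library was above every control library, a pattern that 2.12% of all genes showed, and among the members it was seen for Cbx2 alone. The log2 fold change was 1.15 (SE 0.572, 95% interval -0.099 to 2.40, edgeR adjusted p = 1.00) against WT and 1.32 (SE 0.575, interval 0.063 to 2.58, edgeR adjusted p = 0.478) against δKO. WT and δKO overlapped, at -0.17 (interval -1.40 to 1.07) on the log2 scale for δKO against WT. With DESeq2 on the TKO and WT libraries alone, Cbx2 reached an adjusted p of 0.0966, the lowest of any member under any alternative, and its adjusted p against WT over the alternatives ran from that value to 1.00.

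Cbx7 (ENSMUSG00000053411.16, chromosome 15, 79915807 to 79971119, minus strand) measured 62.0, 39.7 and 33.5 CPM in TKO. Its values were 21.3, 34.0 and 18.7 CPM in WT and 31.6, 12.3 and 9.03 CPM in δKO. TKO lay above δKO without overlap, whereas WT replicate 2 reached into the TKO range. The log2 fold change was 1.36 (SE 0.510, interval 0.24 to 2.47, edgeR adjusted p = 0.465) against δKO and 0.87 (SE 0.504, interval -0.23 to 1.97, edgeR adjusted p = 1.00) against WT. Single libraries moved these sizes. Against δKO the log2 fold change ran from 1.04 without the unnumbered library to 2.08 without δKO replicate 1. Against WT it ran from 0.57 without TKO replicate 1 to 1.17 without WT replicate 2. For δKO against WT it was -0.49 (interval -1.59 to 0.61), and -1.21 without δKO replicate 1 or -0.18 without the unnumbered library.

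Cbx8 (ENSMUSG00000025578.9, chromosome 11, 119036305 to 119040969, minus strand) was the lowest member, with 5.07, 0.698 and 4.32 CPM in TKO, 4.06, 4.93 and 8.29 CPM in WT and 25.4, 3.19 and 9.47 CPM in δKO. The raw counts behind these values ran from 24 in TKO replicate 2 to 638 in δKO replicate 1, and all 3 genotypes overlapped. Its log2 fold change was -1.91 (SE 0.924, interval -3.94 to 0.11, edgeR adjusted p = 0.503) in TKO against δKO and -0.77 (interval -2.74 to 1.19) in TKO against WT. These sizes rested on single libraries: without δKO replicate 1 the value against δKO was -0.91, without TKO replicate 2 the value against WT was -0.30, and the log2 fold change of δKO against WT went from 1.14 to 0.13 without δKO replicate 1.

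Cbx2 and Cbx8 lie end to end on chromosome 11, facing each other with 5034 bases between them. Over the 9 libraries, log2 CPM of Cbx2 and Cbx8 ran opposite to each other (Pearson's r = -0.90, Spearman's rho = -0.77, n = 9 libraries of 3 genotypes), with r = -0.67 after δKO replicate 1 and TKO replicate 2 were left out. With all 9 libraries in, -0.90 was the most negative r among all pairs of members. With 2 libraries left out per pair, other pairs were more negative than -0.67, such as Ring1 and Suz12 (-0.77 without WT replicate 1 and the unnumbered library). These values are given as a description over libraries that share genotypes. For Cbx2 and Cbx8, the 2 libraries at the ends are the one with the highest Cbx8 and lowest Cbx2 (δKO replicate 1) and the one with the lowest Cbx8 and highest Cbx2 (TKO replicate 2).

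**Figure D2:**
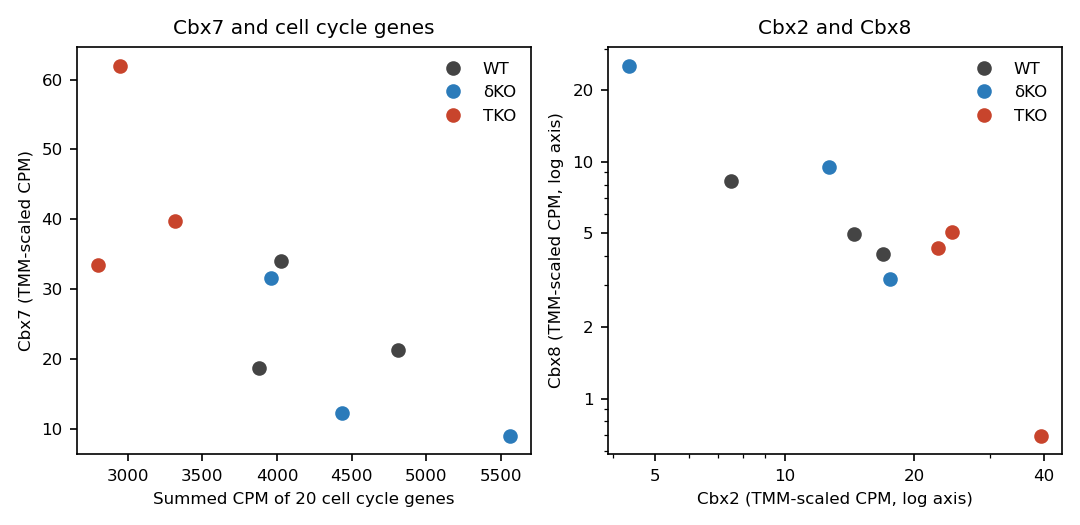
Left, Cbx7 (TMM-scaled CPM) against the summed CPM of 20 cell cycle genes in each of the 9 libraries. Right, Cbx8 against Cbx2 (TMM-scaled CPM, both axes logarithmic). The 3 TKO libraries have the lowest cell cycle sums, and δKO replicate 1 and TKO replicate 2 mark the ends of the Cbx2 and Cbx8 relation at 25.4 and 0.698 CPM of Cbx8.

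Because Cbx proteins take the same place in PRC1, the mRNAs of the 3 Cbx members were also expressed as shares of their sum. Each gene's CPM was divided by the summed length of its exons, and the shares of Cbx2, Cbx7 and Cbx8 were taken within each library. Cbx8 made up 8.27%, 1.22% and 10.1% of this sum in TKO, against 13.2%, 13.4% and 32.7% in WT and 54.1%, 12.6% and 37.1% in δKO. All TKO shares of Cbx8 were therefore below all control shares, although its CPM overlapped between the genotypes. Cbx7 made up 57.3%, 39.3% and 44.2% in TKO, 39.2%, 52.5% and 41.8% in WT and 38.0%, 27.5% and 20.04% in δKO. TKO and WT overlapped, and both lay above δKO without overlap. For Cbx2 the shares were 34.4% to 59.5% in TKO, 25.5% to 47.5% in WT and 7.97% to 59.9% in δKO, and all genotypes overlapped. The shares were not tested. Cbx6, another Polycomb Cbx, was 45.0 ± 13.9 CPM in TKO, 30.6 ± 3.57 in WT and 43.3 ± 7.57 in δKO (mean ± SD, n = 3 each), and TKO overlapped both.

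**Figure D3:**
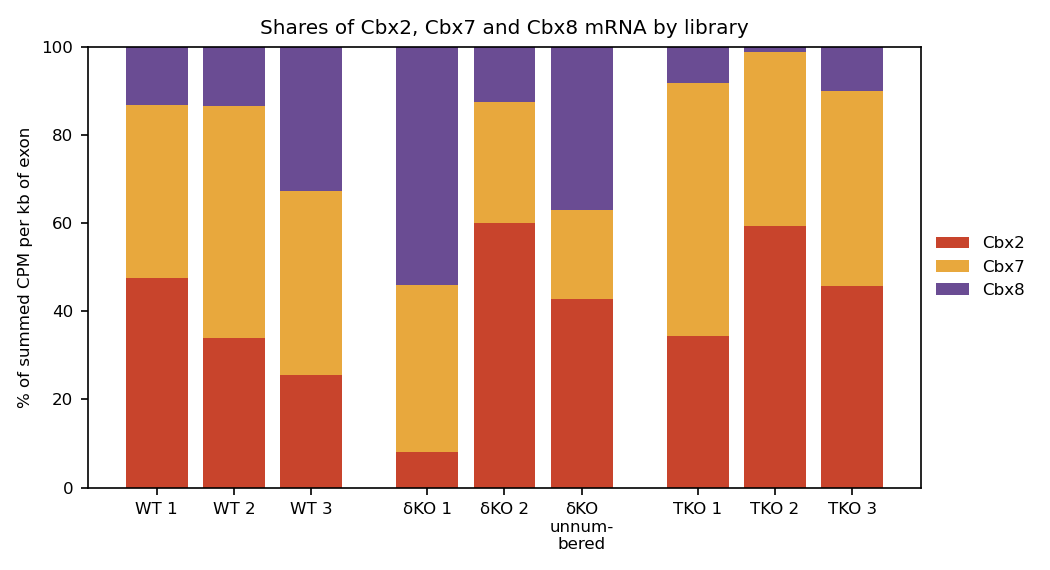
Stacked bars of the share (percent) that Cbx2, Cbx7 and Cbx8 each took of their summed CPM per kilobase of exon in each of the 9 libraries. The Cbx8 segment is 1.22% to 10.1% in TKO and 12.6% to 54.1% in the controls.

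The promoters of Cbx7 and Cbx8, the chromobox members in the promoter table used, are shown because Polycomb proteins are recruited to DNA rich in CpG, so CpG pairs are in capitals. The sequences are the 250 bases before the RefSeq start (GRCm38.p6), 5′ to 3′ on the strand of the gene, at chr15:79932647-79932896 (minus strand) for Cbx7 and chr11:119040914-119041163 (minus strand) for Cbx8. The RefSeq start of Cbx7 lies 38473 bases inside the GENCODE gene given above, whose outer end is set by longer transcripts, and 5 of the 9 GENCODE transcripts of Cbx7 start within 250 bases of it. For Cbx8 the RefSeq start lies 56 bases inside the GENCODE gene.
Cbx7: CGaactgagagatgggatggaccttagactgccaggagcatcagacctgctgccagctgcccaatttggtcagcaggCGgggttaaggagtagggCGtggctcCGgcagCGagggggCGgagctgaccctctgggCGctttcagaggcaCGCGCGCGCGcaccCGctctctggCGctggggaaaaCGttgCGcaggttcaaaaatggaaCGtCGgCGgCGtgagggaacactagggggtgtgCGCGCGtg
Cbx8: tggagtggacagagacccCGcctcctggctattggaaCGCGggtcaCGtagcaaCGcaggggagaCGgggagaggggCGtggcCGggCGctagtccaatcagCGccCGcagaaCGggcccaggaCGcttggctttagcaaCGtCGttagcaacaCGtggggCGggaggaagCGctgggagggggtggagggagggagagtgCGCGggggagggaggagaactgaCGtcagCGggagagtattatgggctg
These stretches hold 23 and 22 CpG pairs. Promoters of 8 of the 9 members were in the table used, Cbx2 being the exception, and over the 300 bases from 250 before to 50 after the start they held from 9 CpG pairs (Phc1) to 41 (Suz12), where the median of 32851 mouse promoters was 7.

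Letters of binding sites for factors downstream of PI3K and of the cell cycle were searched on both strands of the same 300 bases. The FoxO core GTAAACA was in the Eed promoter only among the 8 (3.65% of all promoters), an E2F site written TTTGGCGC or TTTCCCGC was in the Suz12 promoter only (1.56%), and the E-box CACGTG was in the Bmi1 and Cbx8 promoters (7.15%). The matches, in capitals with 12 bases on each side, start at position -150 from the RefSeq start in Eed, -219 in Suz12, -215 in Bmi1 and -98 in Cbx8.
Eed: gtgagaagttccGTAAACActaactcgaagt
Suz12: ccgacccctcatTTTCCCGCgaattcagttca
Bmi1: gaatgaggggagCACGTGacccggcggggg
Cbx8: cgtcgttagcaaCACGTGgggcgggaggaa
A match gives the letters only and says nothing of binding, and the motifs do not overlap each other.

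Rnf2 and Ring1 encode the alternative E3 ligases of PRC1. Rnf2 (ENSMUSG00000026484.13, chromosome 1, 151458004 to 151500955, minus strand) measured 29.5, 41.8 and 35.2 CPM in TKO, 27.7, 29.9 and 33.0 CPM in WT, and 23.0, 31.6 and 45.7 CPM in δKO. The genotypes overlapped, and the intervals of the log2 fold change ran from -0.53 to 0.99 against WT and from -0.67 to 0.85 against δKO, around values of 0.23 and 0.086. Ring1 (ENSMUSG00000024325.8, chromosome 17, 34020792 to 34024680, minus strand) measured 35.7, 45.4 and 21.0 CPM in TKO, 48.8, 25.1 and 20.7 CPM in WT, and 21.9, 23.7 and 71.9 CPM in δKO. Its highest value by far was in the unnumbered δKO library and the genotypes overlapped, with log2 fold changes of 0.11 (interval -1.05 to 1.27) for TKO against WT, -0.20 (interval -1.36 to 0.96) for TKO against δKO and 0.31 (interval -0.85 to 1.47) for δKO against WT. The sign of the Ring1 value turned when that library was left out, to 0.57 for TKO against δKO and to -0.47 for δKO against WT. Per length of exon, the ratio of Rnf2 to Ring1 was 0.649 to 1.32 in TKO, 0.446 to 1.25 in WT and 0.500 to 1.05 in δKO, so neither ligase was the more abundant in every library of any genotype.

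Bmi1 (ENSMUSG00000026739.13, chromosome 2, 18677018 to 18686629, plus strand), which activates the ligases, was among the steadier members. It measured 35.7, 35.2 and 28.6 CPM in TKO, 18.5, 29.6 and 23.4 CPM in WT and 37.4, 33.5 and 24.7 CPM in δKO. WT was lowest on average, but TKO replicate 3 was below WT replicate 2, so TKO and WT overlapped narrowly. The log2 fold change was 0.48 (SE 0.348, interval -0.29 to 1.24, edgeR adjusted p = 1.00) for TKO against WT, 0.058 (interval -0.70 to 0.82) for TKO against δKO and 0.42 (interval -0.34 to 1.18) for δKO against WT. The ratio of Bmi1 to its paralog Pcgf2 per length was 0.844 to 1.22 in TKO and 0.683 to 1.01 in WT. In δKO the ratio ran from 0.212 to 2.69, since Pcgf2 was 156 CPM in δKO replicate 1 and 8.15 CPM in the unnumbered library.

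Phc1 (ENSMUSG00000040669.14, chromosome 6, 122317731 to 122340561, minus strand), which joins PRC1 complexes through its SAM domain, measured 87.5, 73.3 and 77.0 CPM in TKO and 52.5, 80.8 and 77.9 CPM in WT. In δKO it measured 261 CPM in replicate 1, 80.4 in replicate 2 and 22.0 in the unnumbered library. The δKO libraries thus held both the highest and the lowest Phc1 values of the study, and TKO lay inside their range. Log2 fold changes were 0.17 (interval -1.18 to 1.52) for TKO against WT, -0.61 (interval -1.97 to 0.75) for TKO against δKO and 0.78 (interval -0.58 to 2.14) for δKO against WT. Without δKO replicate 1 the last 2 values turned to 0.62 and -0.46.

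The PRC2 subunits overlapped between the genotypes. Suz12 (ENSMUSG00000017548.15, chromosome 11, 79993106 to 80034123, plus strand) measured 77.7, 77.7 and 97.2 CPM in TKO, 108, 89.7 and 94.4 CPM in WT, and 124, 102 and 95.4 CPM in δKO. TKO replicates 1 and 2 were the lowest libraries, but replicate 3 lay among the controls. The log2 fold change was -0.21 (interval -0.73 to 0.31) against WT and -0.35 (SE 0.237, interval -0.86 to 0.17, edgeR adjusted p = 0.629) against δKO, so a fall by more than 0.86 on the log2 scale was outside both unadjusted intervals. Eed (ENSMUSG00000030619.9, chromosome 7, 89954654 to 89980983, minus strand) measured 47.9, 83.8 and 55.8 CPM in TKO, 51.4, 39.1 and 69.7 CPM in WT, and 61.6, 77.9 and 61.1 CPM in δKO. The genotypes overlapped, with log2 fold changes of 0.23 (interval -0.47 to 0.92) for TKO against WT, -0.098 (interval -0.80 to 0.60) for TKO against δKO and 0.33 (interval -0.37 to 1.02) for δKO against WT. Their catalytic partners overlapped as well: Ezh1 was 51.5 ± 17.7 CPM in TKO, 35.6 ± 3.83 in WT and 39.7 ± 10.6 in δKO, and Ezh2 was 82.3 ± 1.34, 90.3 ± 14.0 and 102 ± 35.7 CPM (mean ± SD, n = 3 each). Per length, Ezh1 was less abundant than Ezh2 in all 9 libraries, at a ratio of 0.378 to 0.745 in TKO, 0.295 to 0.427 in WT and 0.211 to 0.738 in δKO.

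**Figure D4:**
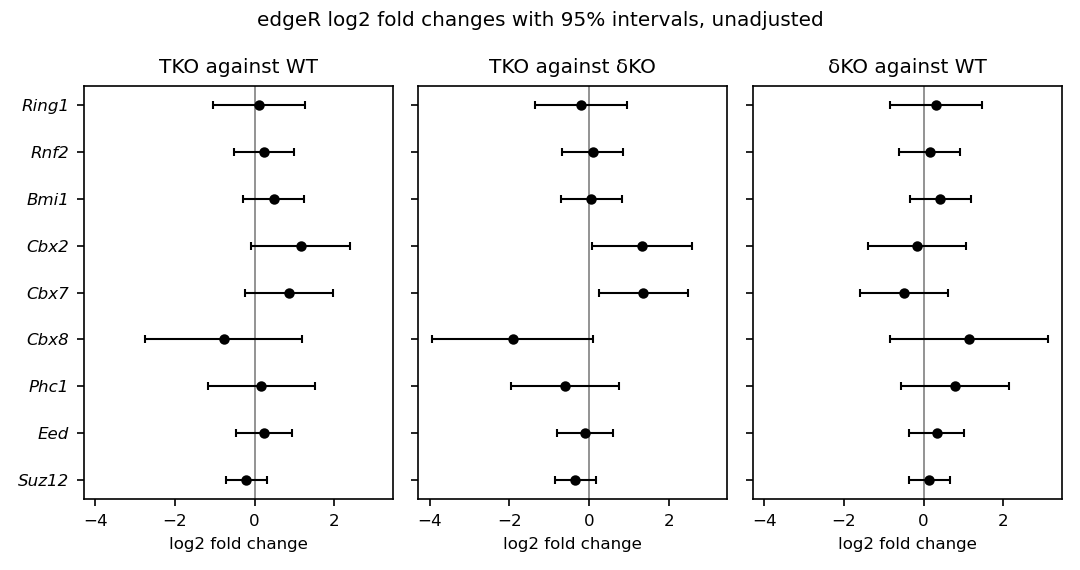
Log2 fold change of each member in the 3 comparisons (horizontal axes) with its unadjusted 95% interval from the edgeR fit to 9 libraries. The intervals lie above 0 for Cbx2 and Cbx7 in TKO against δKO only, and Suz12 has the narrowest intervals.

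Read together, the fitted values were above 0 for 7 of 9 members in TKO against WT (51.2% of all genes), for 4 of 9 in TKO against δKO (47.2%) and for 7 of 9 in δKO against WT (52.8%). The medians over the members were 0.23, -0.098 and 0.31, beside 0.017, -0.055 and 0.046 over all genes. Groups did not overlap for 1 of 9 members in TKO against WT (14.4% of all genes), for 2 of 9 in TKO against δKO (11.7%) and for 0 of 9 in δKO against WT (11.5%). The members without overlap were Cbx2 in TKO against WT, and Cbx2 and Cbx7 in TKO against δKO.

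Levels between genes can be compared only per length. On that scale (CPM per kilobase of exon, mean ± SD over 9 libraries) Suz12 was highest at 19.5 ± 2.93, followed by Phc1 at 17.0 ± 12.6, Eed at 15.9 ± 3.75, Ring1 at 10.8 ± 5.40, Rnf2 at 8.01 ± 1.71, Bmi1 at 7.46 ± 1.62, Cbx7 at 4.49 ± 2.50, Cbx2 at 4.18 ± 2.44 and Cbx8 at 1.98 ± 1.98. Neighbours in this order were often not separated: Phc1 was above Eed in 3 of 9 libraries, Cbx7 above Cbx2 in 4, Rnf2 above Bmi1 in 5 and Ring1 above Rnf2 in 6. Suz12 was above Phc1 in 7 libraries, Eed above Ring1 in 7, Bmi1 above Cbx7 in 8 and Cbx2 above Cbx8 in 7. The spread within genotypes, as the SD of log2 CPM, was 0.18 for Suz12, 0.28 for Bmi1, 0.33 for Rnf2 and 0.36 for Eed, all below the median of 0.89 over all genes. Cbx7 (0.66), Ring1 (0.74) and Cbx2 (0.75) were also below that median, while Phc1 (1.05) and Cbx8 (1.28) were above it.

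Of the 36 other Polycomb genes listed, 35 passed the filter on low counts and 0 passed an adjusted p of 0.05 in any comparison by edgeR. At an unadjusted p under 0.05, 0 were higher and 1 lower in TKO against WT (1.68% and 2.5% of all genes), 0 higher and 2 lower in TKO against δKO (4.6% and 5.56%), and 3 higher and 0 lower in δKO against WT (3.65% and 3.36%). The gene lower in TKO against WT was Auts2, a subunit of variant PRC1, with 0.937, 0.291 and 1.40 CPM in TKO against 2.50 to 9.62 in WT (log2 fold change -2.70, SE 1.23). The genes higher in δKO were all highest in replicate 1, as Phc1 was: Aebp2, an accessory subunit of PRC2, was 243 CPM in δKO replicate 1 and 79.4 and 117 in the others, against 66.8 to 79.1 in WT and 63.0 to 90.4 in TKO. Bap1, the catalytic subunit of the complex that removes ubiquitin from H2A, was 136, 70.2 and 102 CPM in δKO and 52.4 to 66.6 in TKO, with a log2 fold change of -0.80 (SE 0.289, edgeR adjusted p = 0.465) for TKO against δKO. Its partner Asxl1 was 306, 118 and 146 CPM in δKO and 104 to 112 in WT.

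Genes that Polycomb is known to silence were also read. Cdkn2a and Cdkn2b, which encode cell cycle inhibitors and are classical targets of Bmi1 and Cbx7, had 0 counts in all 9 libraries, where 3 counts would correspond to 0.0504 to 0.120 CPM (a limit set by counting error only). Of 20 developmental regulators that are Polycomb targets in most tissues, 9 had no count in any library, 7 had 1 to 20 counts over all libraries, 4 had more, and 2 passed the filter. Neither of those, Pax6 and Sox17, had an unadjusted p under 0.05. Among 12 targets known in blood cells, 10 passed the filter and Cdkn1c, a cell cycle inhibitor of quiescent HSCs, was the only one with an unadjusted p under 0.05, at 2.62 on the log2 scale for TKO against WT (SE 1.18, edgeR adjusted p = 1.00), with 26.6 CPM in TKO replicate 2 and 1.68 and 3.65 CPM in the others against 0.806 to 3.22 in WT. The high value was that of 1 library, and the groups overlapped. Of the 10, 8 had higher fitted values in TKO against WT (median 0.56 on the log2 scale, beside 0.017 over all genes), 7 in TKO against δKO (median 0.37, beside -0.055) and 6 in δKO against WT (median 0.23, beside 0.046). Meis1, a homeobox factor that is also on the list of HSC markers, was the only one whose groups did not overlap in any comparison, at 338 to 450 CPM in TKO and 183 to 288 in WT (log2 fold change 0.70, SE 0.392, edgeR adjusted p = 1.00).

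Markers of cell state moved with genotype beside these results. The 20 cell cycle genes summed to 2800 to 3319 CPM in TKO, 3877 to 4812 in WT and 3963 to 5564 in δKO, so that TKO lay below both control genotypes, which overlapped each other, and all 20 had lower fitted values in TKO in both comparisons. At an unadjusted p under 0.05, 7 of them were lower in TKO against WT (2.5% of all genes) and 8 in TKO against δKO (5.56%). Cbx7 ran opposite to the cell cycle score, which is the mean over the 20 genes of centered log2 CPM. Its r was -0.85 (rho = -0.80, n = 9 libraries, and r = -0.84 without TKO replicates 1 and 3). Bmi1 (r = -0.53, rho = -0.58) and Phc1 (r = -0.52, rho = -0.50) also ran opposite to the score, and Cbx2 had r = -0.29 and rho = -0.48. For the other members r was above 0, from 0.11 (Eed) to 0.44 (Ring1). How many of all genes had such values was not counted. The 10 neutrophil markers summed to 169.5, 3413 and 961 CPM in TKO, 5555 to 12868 in WT and 277 to 12803 in δKO, with none at 0 in any library. All 14 HSC markers were above 0 CPM in every library and had positive log2 fold changes in TKO against WT. Of them, 10 were higher without overlap, as were 1253 of all 18205 genes. Against δKO 10 were higher, 3 of these without overlap (1271 of 18205 genes), and 4 were lower with overlap. In δKO against WT 13 of 14 were higher. The HSC markers summed to 2539 to 3040 CPM in TKO, 1678 to 2134 in WT and 1800 to 4020 in δKO. Mitochondrial transcripts took 9.35% and 7.63% of counts in TKO replicates 1 and 3 and 10.4% in δKO replicate 1, against 15.5% to 18.4% in the other 6 libraries. The part of these differences in the values of the members was not tested.

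Markers of other lineages were detected to unequal degrees. The 6 T cell markers summed to 1.32 to 51.6 CPM, with Cd3e, Cd3g and Cd8a at 0 in all 9 libraries and Lck at 51.4 CPM in δKO replicate 1. The 7 B cell markers summed to 4.68 to 12.4 CPM, most of it Cd79b, with 1 to 6 of them at 0, and the 8 monocyte and macrophage markers to 37.0 to 142.8 CPM. Of these 8, Cd68 (24.8 to 59.2 CPM), Csf1r (2.43 to 34.6 CPM) and Fcgr3 (1.55 to 53.1 CPM) were the highest and were detected in all 9 libraries, while C1qa and C1qb were at or near 0. The sums overlapped between genotypes (37.0 to 83.6 CPM in TKO, 56.2 to 127 in WT and 74.0 to 142.8 in δKO), and of the 6 genes that passed the filter 2 had higher and 4 lower fitted values in TKO against WT. Among the 6, Fcgr3 alone had TKO and WT without overlap, at 1.55 to 12.5 CPM in TKO and 19.1 to 52.4 in WT (log2 fold change -2.67, SE 0.813, edgeR adjusted p = 1.00), while Cd68 was 37.4 ± 7.53 CPM in TKO and 30.1 ± 6.99 in WT (mean ± SD, n = 3 each). Erythroid markers (8 genes) summed to 4.80 to 113 CPM and overlapped between genotypes, as did megakaryocyte markers (6 genes, 165.9 to 569 CPM). Flt3 and Cd48, whose proteins are absent from the gate, summed to 26.3 to 49.0 CPM in TKO, 50.1 to 133 in WT and 12.9 to 76.3 in δKO, so that TKO lay below WT and within δKO. Cd48 itself was 9.66 to 14.0 CPM in TKO and 18.3 to 23.2 in WT without overlap (log2 fold change -0.81, SE 0.523, edgeR adjusted p = 1.00), whereas Flt3 overlapped. The part of these markers in the values of the members was not tested. δKO replicate 1, which had the highest Phc1 and Cbx8 values, also had the highest HSC and T cell sums and the lowest sum of the gate-negative genes.

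For each member, the gene among the 18205 with the most similar pattern of log2 CPM over the 9 libraries was Vcan for Bmi1 (r = 0.98), Impdh1 for Ring1 (0.96), Wdr59 for Rnf2 (0.95), Ulbp1 for Eed (0.93), Dnajc11 for Suz12 (0.94), Cfap100 for Cbx2 (0.98), Miga1 for Cbx7 (0.96), Plek2 for Cbx8 (0.99) and Aqp9 for Phc1 (0.99). The pattern of Eed was shared least, with 1 gene above r = 0.9, and that of Phc1 most, with 174. For Phc1 the likeness rested partly on extreme libraries, since Spearman's rho with Aqp9 was 0.52 and r was 0.79 without δKO replicate 1 and the unnumbered library. Among the members themselves, Rnf2 and Phc1 (r = -0.77) also ran opposite over 9 libraries, but r was 0.22 without the same 2 libraries, and the highest positive value, 0.66 for Suz12 with Cbx8, was -0.26 without δKO replicate 1 and TKO replicate 2.

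Exons of 4 members overlapped exons of a gene on the other strand, and the strand setting of the counting is not given in the sources used here. The shared bases were 158 of Rnf2 (with Trmt1l, 3.83% of its exon bases), 261 of Eed (with E230029C05Rik, 6.82%), 178 of Suz12 (with Gm26563, 3.60%) and 100 of Cbx7 (with Apobec3, 1.54%).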

How the data were processed

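The authors trimmed reads with Trim Galore 0.3.7, aligned them to mm10 with STAR 2.5.1b and deposited raw counts per gene, as well as a signal, per the labels and the file headers. In the 8 columns that both tables name alike, the signal was the counts divided by a DESeq2 size factor. The unnumbered δKO column of counts and the δKO replicate 3 column of the signal, whose names differ, also had 1 constant quotient (0.643) over 18500 genes, and both were used as δKO only. The annotation, the joining of technical runs and the counting strand are not given in the sources used here. Here edgeR 4.0.16 in R 4.3.3 was run on the counts as deposited, with TMM factors, filterByExpr (minimum count 10, minimum total 15), a quasi-likelihood fit to all 9 libraries with 1 mean per genotype (6 residual degrees of freedom) and Benjamini-Hochberg adjustment over 18205 genes, with calls at 0.05. Intervals are unadjusted. DESeq2 1.42.0, and limma 3.58.1 on log2 of the deposited signal + 1, were alternatives, with other scalings, filters, a replicate block, genes detected as a covariate, only the groups compared, a 2-fold minimum and each library left out. Depths were 31300343 to 60386097 counts. The chi-square per gene between libraries of a genotype was at least 128, so these libraries differed by more than counting error alone. Symbols, exon lengths and coordinates came from GENCODE, which held 47224 of 47643 identifiers without their version. Of the text's other genes, the 6 lists of other Polycomb genes and Polycomb targets gave up to 3 with the lowest unadjusted p under 0.05 per list and comparison, besides paralogs and partners of members and, for each member, the gene with the highest Pearson's r. Genes outside this rule, such as Cd79b, Lck, C1qa, Cd68, Csf1r, Fcgr3, Meis1 and the overlapping genes, were named after their values were seen. The members and lists were chosen with earlier results of these data known. The pipeline was tested on simulated data.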

Additional observations from a re-analysis of the deposited data

How the results depend on the processing

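The call of 0 of 9 members held under every alternative that was run, in all 3 comparisons, with the 2-fold minimum and DESeq2 included. Of 513 alternative values of the members' log2 fold changes, 484 kept their direction, 29 turned, and none passed the threshold. Upper-quartile factors shifted the median of all genes by 0.14 in TKO against δKO and -0.15 in δKO against WT, and turned Eed in TKO against δKO to 0.013 and Suz12 in δKO against WT to -0.027. With genes detected per library as covariate, Ring1 turned to -0.19 in TKO against WT, 0.32 in TKO against δKO and -0.51 in δKO against WT. limma on the deposited normalized signal turned Phc1 in TKO against δKO to 0.016. The cause was not tested for these.

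The replicate block, fitted without the unnumbered δKO library, called 0 of 9 members in each comparison. Under the block, Bmi1 turned to -0.052 and Ring1 to 0.81 in TKO against δKO, and Ring1 to -0.69 and Rnf2 to -0.13 in δKO against WT, and each also turned without that library alone. Deviations of libraries with the same number correlated at -0.036 to 0.083, so the numbers did not pair them.

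With each library left out in turn, values ranged as follows. In TKO against WT, Ring1 from -0.16 to 0.57, Eed from -0.045 to 0.46 and Phc1 from -0.0044 to 0.28. In TKO against δKO, Bmi1 from -0.097 to 0.19, Ring1 from -0.49 to 0.57, Rnf2 from -0.13 to 0.38, Eed from -0.37 to 0.059 and Phc1 from -1.11 to 0.62. In δKO against WT, Ring1 from -0.47 to 0.78, Rnf2 from -0.15 to 0.36, Cbx2 from -0.60 to 0.22 and Phc1 from -0.46 to 1.27.

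Libraries of a genotype differed by more than counting error alone, and whether depth had a part in that spread was not tested. With 3 libraries per genotype, the intervals for Ring1, Phc1 and Cbx8 allow changes of over 2-fold in either direction for TKO against WT.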
